A study of Mus musculus with 16 samples.

Results

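The mouse proteins CD301b, CD11b and XCR1, read with DNA-tagged antibodies, were set against the RNA of the genes that encode them, Mgl2, Itgam and Xcr1, in single cells of liver-draining lymph nodes (LN). Clec10a and Cd209a, a pair of C-type lectin genes related to Mgl2, were added at the RNA level, since no antibody to their products was in the panel. These are 5 of the 32285 genes and 3 of the 11 antibodies in the LN tables, listed by name. They were measured in 18524 cells from 3 libraries of C57BL/6J mice, which the study's methods describe as male. The D0 library came from mice that had not received the diet. The D5 and D19 libraries came from mice on chow with 0.1% DDC, a dihydrocollidine compound that blocks bile flow and injures the bile ducts. The title and treatment of the second library give D5 whereas its description gives D6, and D5 is used throughout. In each case hepatoduodenal and celiac nodes were pooled, digested with collagenase and sorted into CD45+ CD11c-, CD45+ CD11c+, Pdpn+ and CD45- Pdpn- fractions. Per the study's methods these were mixed in equal parts, so the proportions of cell types cannot be read as those of the node. Only 122 of the cells measured were named here as fibroblastic stroma and 57 as endothelial, so the proportions may not follow the stated mix either. The number of mice per library was not given in the sources used here. The study used the antibodies to find mature Ccr7+ cDC2 whose subset RNAs decline on maturation, within a wider question on interleukin 17 responses in these nodes.

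CD301b, also called MGL2, is a membrane lectin that binds galactose and N-acetylgalactosamine sugars and marks one branch of the type 2 conventional dendritic cells (cDC2). Its close relative MGL1, encoded by Clec10a, binds related sugars, and Cd209a encodes a mannose-binding lectin of the DC-SIGN family. CD11b is the αM integrin chain, which pairs with the β2 chain encoded by Itgb2 to form complement receptor 3, and it is found on cDC2, monocytes, macrophages, granulocytes and natural killer (NK) cells. XCR1 is the receptor for the chemokine XCL1 and marks type 1 conventional dendritic cells (cDC1), which present antigen to CD8 T cells. When conventional dendritic cells mature and move to a lymph node they switch on Ccr7, Fscn1 and a shared set of genes and switch off much of the RNA that tells their subsets apart. Plasmacytoid dendritic cells (pDC) are a separate lineage specialised in interferon production.

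The identity of each protein reading rests on a 15-base tag joined to the antibody, which is captured and counted in the same droplet as the cell's RNA. The 3 tags are shown because every protein value below is a count of one of them, and each is printed 5′ to 3′ in lower case, since the whole run is the identifier.
CD301b: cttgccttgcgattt
CD11b: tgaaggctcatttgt
XCR1: tccattacccacgtt
Any 2 of the 11 tags in the panel differed at 6 or more of their 15 bases. The antibody clones were URA-1 for CD301b, M1/70 for CD11b and ZET for XCR1, per the study's methods. RNA was read from the 3′ end of transcripts on the mm10 build. In the RefSeq annotation of the same build (GRCm38.p6), Mgl2 lies at chr11:70130125-70137542 and Clec10a at chr11:70166623-70170836, with 29080 bases between the 2 genes. Itgam lies at chr7:128062640-128118491, Xcr1 at chr9:123852315-123862029 and Cd209a at chr8:3743395-3748984. Mgl2 and Clec10a are similar in sequence, and how reads that match both were assigned is not given in the sources used here, so a low Mgl2 count in cells with much Clec10a is uncertain.

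The tables hold unique molecular identifiers (UMIs), each a counted RNA or tag molecule. The libraries held 45317389, 47653941 and 32013882 RNA UMIs and 7411709, 8370661 and 5135965 antibody UMIs at D0, D5 and D19, over all barcodes. Of 20533 barcodes with at least 1000 RNA UMIs, 6200, 5936 and 6388 cells were kept after filters on genes, mitochondrial RNA and doublets. Any 2 libraries shared 10 to 13 of these barcodes. Cells were clustered on RNA with the 5 member genes left out, and clusters were named from marker lists, with "-like" to mark that the names were rebuilt here. Mature DC-like cells, in 2 of the 24 clusters, numbered 296, 509 and 1116. All 15 mature dendritic cell markers were at least 1 log2 unit above the other cells in each library, and Ccr7 stood at 2865, 1708 and 2209 CPM (UMIs of a gene per 1000000 RNA UMIs). cDC2-like cells numbered 380, 190 and 137, with 6 or 7 of 11 cDC2 markers raised in each library. Only 1 cDC2 marker, Cd300a, and also 1 monocyte marker, Ifitm6, stood among this cluster's top 10 genes, so the name is the weakest of those used. No cluster was named cDC2-like at resolutions of 0.5 and 2.0 or with a filter on 1000 UMIs alone. cDC1-like cells numbered 135, 43 and 67 with at least 11 of 12 markers raised. A further 311, 146 and 157 cells were pDC-like, and 473, 130 and 206 were NK cell-like. A small cluster of 103 cells led by Lyz2 and Chil3 is left unnamed and is called the Lyz2 Chil3 cluster.

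Each day is 1 library, so differences between days could not be tested. Lineages and positive and negative cells were compared within each library, which gives 3 pairs, and as the smallest p an exact two-sided test can give over 3 pairs is 0.25, no p-value is given. Intervals in brackets are exact 95% intervals (Clopper-Pearson for shares of cells, Poisson for CPM, conditional for ratios), and they cover counting error only. Protein is given as the share of a cell's antibody UMIs that carried the tag. These shares sum to 100% within a cell, so a high share of one tag lowers the others. Barcodes with at most 100 RNA UMIs, which hold mostly free material, had 2.25, 2.71 and 3.19% of their antibody UMIs from CD301b, 6.88, 7.89 and 6.62% from CD11b and 1.83, 2.20 and 1.68% from XCR1.

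Among the dendritic, NK and lymphoid lineages, CD301b protein stood highest in the mature DC-like cells, where a minority of cells carried most of it. The CD301b share of all antibody UMIs pooled over these cells was 6.70% at D0, 8.18% at D5 and 19.5% at D19. Among cDC2-like cells the pooled share was 0.584, 4.54 and 10.5%, below the mature cells of the same library each time. The mature DC-like cells were unequal. Their median share was only 0.665, 0.443 and 1.67%, whereas the 95th percentile reached 24.7, 31.5 and 52.9%. In cDC2-like cells the median was 0.200, 0.243 and 0.388% and the 95th percentile 1.81, 10.1 and 30.4%. The 2 populations thus overlapped over most of their range and parted in the upper tail. Mature DC-like cells carried on average 66.1, 125 and 151 CD301b tag UMIs each. Outside the immune lineages, endothelial-like cells had pooled shares of 6.82, 1.06 and 11.4%, from only 6, 46 and 5 cells. pDC-like cells had medians of 0.123, 0.0767 and 0% and cDC1-like cells pooled shares of 0.306, 0.129 and 0.430%, all below the free-tag background. B cell-like cells, the reference for the gate below, had pooled CD301b shares of 1.93, 2.08 and 2.40%, each below that background.

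**Figure D1:**
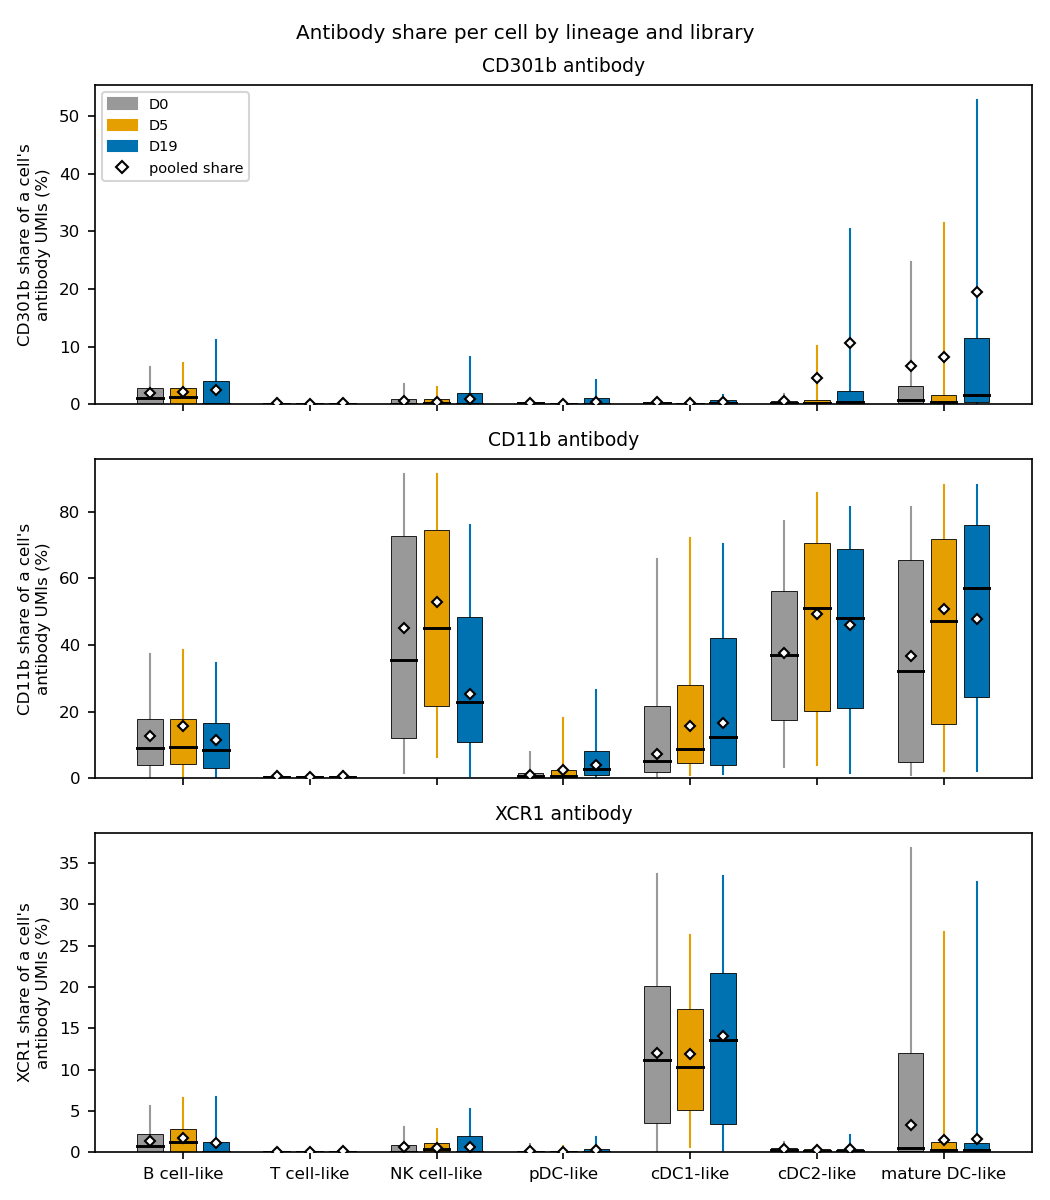
CD301b, CD11b and XCR1 as a share of each cell's antibody UMIs (%, linear axis) in 7 lineages and 3 libraries. Boxes are quartiles over cells, lines run from the 5th to the 95th percentile, the black bar is the median and the white diamond the pooled share. CD301b in mature DC-like cells has medians from 0.443 to 1.67% under long upper lines, whereas the XCR1 boxes of cDC1-like cells centre on medians of 10.3 to 13.6%.

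A cell was called positive for a tag where its share was above the 99th percentile of B cell-like cells of the same library and it held at least 5 UMIs of the tag. For CD301b this placed the threshold at 10.4, 13.2 and 29.8%. By this gate 37 of 296, 57 of 509 and 147 of 1116 mature DC-like cells were CD301b+, or 12.5% [8.96 to 16.8], 11.2% [8.59 to 14.3] and 13.2% [11.2 to 15.3]. The nearly equal shares stood beside unequal thresholds. B cell-like cells, which set them, carried few antibody UMIs, with medians of 60, 58 and 25. When the same percentile was taken on tag UMIs per cell instead of shares, 24.3, 25.1 and 37.0% of mature DC-like cells were positive. Among cDC2-like cells 1, 9 and 8 were CD301b+, or 0.263, 4.74 and 5.84%, and the gate on tag UMIs gave 2.37, 14.7 and 19.7%. Between 2.55 and 6.27% of mature DC-like cells lay close to the CD301b threshold, from 20% below to 25% above it.

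Mgl2 RNA showed the opposite order, with UMIs in cDC2-like cells and almost none in mature DC-like cells. In mature DC-like cells Mgl2 had 2, 0 and 3 UMIs at D0, D5 and D19, that is 0.973 CPM [0.118 to 3.51], 0 CPM [0 to 0.934] and 0.572 CPM [0.118 to 1.67]. In cDC2-like cells it had 30, 79 and 24 UMIs, that is 7.998 CPM [5.40 to 11.4], 38.8 CPM [30.7 to 48.4] and 27.6 CPM [17.7 to 41.0]. The intervals of the 2 lineages did not overlap in any library, and the D0 value of the cDC2-like cells was the lowest of their 3 values. Mgl2 was 8.22-fold lower in mature DC-like cells at D0 [2.09 to 71.0], at least 51.1-fold lower at D5 and 48.2-fold lower at D19 [14.6 to 250]. The "at least" values set a group with no UMI at a floor of 3 UMIs, which is less strict than the two-sided interval, whose limit at D5 is 40.6-fold. Only a small part of the cDC2-like cells carried the RNA, 10 of 380, 14 of 190 and 11 of 137 cells (2.63, 7.37 and 8.03%). With every cell thinned to 1000 RNA UMIs, the cells with an Mgl2 UMI were 2, 4 and 4 in the cDC2-like and 0 in the mature DC-like cells of each library. B cell-like cells held no Mgl2 UMI in any library, and barcodes with at most 100 RNA UMIs held 5.02, 2.07 and 0.483 CPM. The D0 level in cDC2-like cells stood nearer to the free-RNA value than the D5 and D19 levels did to theirs. Free RNA is only part of the RNA in a cell's droplet, so the 2 CPM values are unlike measures. At D0 the 30 UMIs lay in 10 of 380 cells, of which 6 held 2 or more. pDC-like cells had 17.3, 19.2 and 12.3 CPM of Mgl2, from 46, 29 and 11 UMIs.

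Within the mature DC-like cells, nearly all CD301b+ cells held no Mgl2 UMI. None of the 37 CD301b+ cells at D0, none of the 57 at D5 and 1 of the 147 at D19 held an Mgl2 UMI. Among CD301b-negative mature cells the numbers were 1 of 259, 0 of 452 and 2 of 969. The gate on tag UMIs per cell gave 1 of 72, 0 of 128 and 3 of 413 CD301b+ cells with an Mgl2 UMI, against 0 of 224, 0 of 381 and 0 of 703 negative cells. The 4 mature cells with the RNA were thus all CD301b+ by that gate and 1 of 4 by the gate on shares, too few to compare. The CD301b+ mature cells drew 29.6, 35.4 and 53.8% of their antibody UMIs from the CD301b tag. Against all cDC2-like cells of the same library, their Mgl2 level was at least 6.08-fold lower at D5 and 22.2-fold lower at D19 [3.62 to 912]. At D0 no fold can be given, since 289755 RNA UMIs in 37 cells are too few to set a limit below the cDC2-like level.

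In the cDC2-like cells, Mgl2 RNA was more frequent in CD301b+ than in negative cells. Of the CD301b+ cells 1 of 1, 8 of 9 and 6 of 8 held an Mgl2 UMI, against 9 of 379, 6 of 181 and 5 of 129 of the negative cells. Over the 3 libraries, which had unlike thresholds, that is 15 of 18 (83.3%) against 20 of 689 (2.90%), and 413 against 8.96 CPM, a ratio of 46.1 [32.3 to 66.2]. The ratio was 80.5, 35.4 and 22.4 in the 3 libraries, and the D0 value comes from a single positive cell. The interval takes UMIs as independent, whereas they came from few cells, so it does not cover the spread between cells. By the gate on shares 20 of the 35 cells with the RNA were CD301b-negative. The sizes depended on the gate. With tag UMIs per cell 21 of 64 CD301b+ cells (32.8%) and 14 of 643 negative cells (2.18%) held an Mgl2 UMI, and the ratio was 51.9 at D0, 54.7 at D5 and 4.22 at D19. The CD301b share also followed the number of Mgl2 UMIs. Its median was 0.229% in the 672 cDC2-like cells with none, 0.881% in the 12 cells with 1 and 14.8% in the 23 cells with 2 or more, of which 56.5% were CD301b+. By library the cells with 2 or more numbered 6, 10 and 7, with medians of 3.35, 22.6 and 56.9%. The medians without a UMI were 0.189, 0.229 and 0.370%. In contrast, the 67 pDC-like cells with an Mgl2 UMI had a median CD301b share of 0.0718% and none was CD301b+.

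CD11b, the αM integrin, was carried by mature DC-like and cDC2-like cells at similar levels. The median share was 32.2, 47.1 and 57.2% in mature DC-like cells and 36.9, 51.1 and 48.2% in cDC2-like cells. The pooled shares were 36.8, 50.7 and 47.8% against 37.7, 49.4 and 46.0%, a ratio of 0.976, 1.03 and 1.04. The Lyz2 Chil3 cluster had the highest median at D0 and D5, 59.1 and 77.5%, with 50% at D19. NK cell-like cells had 35.4, 45.2 and 23.0%. By share cDC1-like cells were far lower at 5.18, 8.93 and 12.5%, B cell-like cells stood at 8.99, 9.30 and 8.33%, and pDC-like cells were the lowest of these at 0.547, 0.755 and 2.75%. In tag UMIs per cell the order was another. Median CD11b UMIs were 32, 63.5 and 11 in NK cell-like, 57, 73 and 52 in cDC1-like and 6, 5 and 2 in B cell-like cells. Median antibody totals were 89, 151.5 and 38 UMIs in NK cell-like and 1070, 747 and 502 in cDC1-like cells. The pooled share of B cell-like cells was 12.8, 15.8 and 11.4%, above the free-tag background, and some B cells are known to carry CD11b. The gate threshold they set was high, from 54.5 to 59.3%. By it 98, 206 and 590 mature DC-like cells were CD11b+ (33.1, 40.5 and 52.9%), and 51.0, 63.1 and 75% by the gate on tag UMIs. As 20.6 to 26.3% of these cells lay as close to the threshold, the gated share is less firm than the levels.

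Itgam RNA, by contrast, was almost absent from the mature cells. It had 0 UMIs among 2055399 RNA UMIs at D0, 0 among 3950941 at D5 and 4 among 5245143 at D19, that is 0 CPM [0 to 1.79], 0 CPM [0 to 0.934] and 0.763 CPM [0.208 to 1.95]. In cDC2-like cells it had 104, 57 and 35 UMIs, or 27.7, 28.0 and 40.2 CPM, and 17.5 to 20% of the cells held one. Against the floor of 3 UMIs, Itgam was at least 18.996-fold and at least 36.9-fold lower in mature DC-like cells at D0 and D5 (limits of 15.2 and 29.04 from the two-sided intervals). At D19 it was 52.7-fold lower [18.9 to 204]. Barcodes with at most 100 RNA UMIs had 3.43, 1.75 and 2.90 CPM, more than the mature cells in each library. The other carriers of the RNA were NK cell-like cells with 38.0, 34.7 and 15.7 CPM and the Lyz2 Chil3 cluster with 69.1, 125 and 133 CPM. None of the 98 and 206 CD11b+ mature cells at D0 and D5 held an Itgam UMI, and 2 of 590 did at D19.

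In cDC2-like and NK cell-like cells, Itgam RNA was more frequent in the CD11b+ cells. Among cDC2-like cells, Itgam CPM was 2.63 [1.75 to 3.94], 2.47 [1.42 to 4.35] and 3.55 [1.67 to 8.02] times higher in CD11b+ than in CD11b-negative cells. By the gate on shares NK cell-like cells showed a wider difference, which was not tested. An Itgam UMI was held by 58 of 177, 15 of 49 and 9 of 41 CD11b+ cells, against 9 of 296, 3 of 81 and 3 of 165 negative cells. The NK cell-like ratio was 16.2 [8.59 to 33.6], 16.0 [4.84 to 83.4] and 17.1 [4.41 to 96.9], and it came down to 5.55, 3.18 and 2.22 with the gate on tag UMIs. Over the 3 libraries the CD11b+ share of cDC2-like cells was 28.7% of 572 cells with no Itgam UMI, 44.4% of 99 with 1 and 58.3% of 36 with more. In NK cell-like cells it was 25.98% of 712, 80.6% of 67 and 93.3% of 30. The Lyz2 Chil3 cluster, with the highest Itgam level, was less even, with a UMI in 5 of 13, 31 of 39 and 9 of 14 CD11b+ cells against 5 of 10, 2 of 8 and 7 of 19 negative cells. Its CPM ratio was 1.41 [0.483 to 4.35], 5.64 [1.86 to 27.9] and 1.47 [0.676 to 3.17], with an interval above 1 at D5 only.

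XCR1, the XCL1 receptor, was highest in the cDC1-like cells. Its median share was 11.1, 10.3 and 13.6% in cDC1-like cells, 0.563, 0.303 and 0.239% in mature DC-like cells and 0.241, 0.203 and 0.117% in cDC2-like cells. The mature cells again held an upper tail of shares, with a 95th percentile of 36.8, 26.7 and 32.6%, above the cDC1-like medians. By the gate, with thresholds of 10.02, 11.1 and 10.5%, 75 of 135, 19 of 43 and 37 of 67 cDC1-like cells were XCR1+ (55.6, 44.2 and 55.2%, or 75.6, 81.4 and 76.1% on tag UMIs). In mature DC-like cells 83, 66 and 183 cells were XCR1+, or 28.0% [23.0 to 33.5], 12.97% [10.2 to 16.2] and 16.4% [14.3 to 18.7], and on tag UMIs 33.1, 25.3 and 23.5%. The XCR1+ mature cells held on average 91.8, 117 and 49.5 XCR1 tag UMIs, against 165, 107 and 82.9 in all cDC1-like cells. Their median antibody totals were 323, 357.5 and 169 UMIs against 1070, 747 and 502. Their high shares thus did not go with more XCR1 tags per cell at D0 and D19. Of the cDC2-like cells 1, 0 and 0 were XCR1+.

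Xcr1 RNA lay mostly in the cDC1-like cells. It had 625, 120 and 145 UMIs there, or 302, 210 and 221 CPM, in 77.8, 69.8 and 59.7% of cells. In mature DC-like cells it had 11, 5 and 9 UMIs, or 5.35, 1.27 and 1.72 CPM, which is below the 9.24, 1.59 and 2.90 CPM in barcodes with at most 100 RNA UMIs. The level in mature cells was 56.4-fold [31.3 to 114], 166-fold [69.04 to 519] and 129-fold [66.0 to 287] lower than in cDC1-like cells. XCR1+ mature cells alone, which drew 21.1, 24.1 and 23.8% of their antibody UMIs from XCR1, were 33.9-fold [13.2 to 125], at least 33.5-fold and 32.8-fold [14.7 to 90.8] lower. An Xcr1 UMI was seen in 4 of 83, 0 of 66 and 4 of 183 XCR1+ mature cells, against 6 of 213, 5 of 443 and 2 of 933 negative ones. The CPM ratio of XCR1+ to negative mature cells was 2.05 at D0 [0.439 to 8.05] and 9.78 at D19 [2.09 to 60.4], and at D5 all 5 UMIs were in negative cells. The XCR1+ level at D0 was 8.91 CPM, and no common direction was seen in these few UMIs. In cDC1-like cells Xcr1 was 2.64 [2.20 to 3.18], 2.53 [1.70 to 3.82] and 3.34 [2.24 to 5.12] times higher in XCR1+ than in negative cells. XCR1+ cells were 23.3, 7.69 and 37.0% of the 30, 13 and 27 cDC1-like cells with no Xcr1 UMI. With 1 UMI they were 43.8, 30 and 70% of 16, 10 and 10 cells, and with 2 or more 68.5, 75 and 66.7% of 89, 20 and 30 cells. By this gate on shares the XCR1+ part was lowest without a UMI in each library, and at D19 no higher with 2 or more UMIs than with 1. By the gate on tag UMIs it was 33.3, 56.25 and 93.3% with 0, 1 and 2 or more UMIs at D0. At D5 it was 69.2, 80 and 90%, and at D19 51.9, 80 and 96.7%. The cells also differed in depth, at D5 with medians of 3589 RNA UMIs without an Xcr1 UMI and 18306 with 2 or more.

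Clec10a and Cd209a, the lectin genes without an antibody, were both low in mature DC-like cells and both high in pDC-like cells. Clec10a was highest in pDC-like cells at 157, 174 and 178 CPM, with a UMI in 59.2, 73.3 and 49.7% of cells. cDC2-like cells had 36.5, 60.4 and 71.2 CPM, in 9.47, 12.6 and 15.3% of cells. Mature DC-like cells had 0, 1.52 and 1.33 CPM of Clec10a, below the 19.8, 8.90 and 4.34 CPM of free RNA. Cd209a, which encodes a DC-SIGN family lectin, stood at 216, 131 and 94.2 CPM in cDC2-like and 188, 237 and 219 CPM in pDC-like cells. It led in cDC2-like cells at D0 and in pDC-like cells at D5 and D19. Mature DC-like cells had 0.487, 2.02 and 0.191 CPM of Cd209a. These 2 genes took part in no clustering step. Between CD301b+ and negative cDC2-like cells, the ratios of these lectins were smaller than those of Mgl2 in each library, a difference that was not tested. Cd209a was 3.97 [2.04 to 6.97], 2.74 [1.90 to 3.84] and 5.71 [3.23 to 9.66] times higher in the 1, 9 and 8 CD301b+ cells. For Clec10a the ratio was 1.94 [0.0489 to 11.0], 1.37 [0.639 to 2.61] and 1.30 [0.344 to 3.52], so no difference was detectable at this depth. As for Mgl2, these intervals take UMIs as independent and do not cover the spread between cells. The D0 ratios come from 1 CD301b+ cell and say nothing on such cells as a group.

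**Figure D2:**
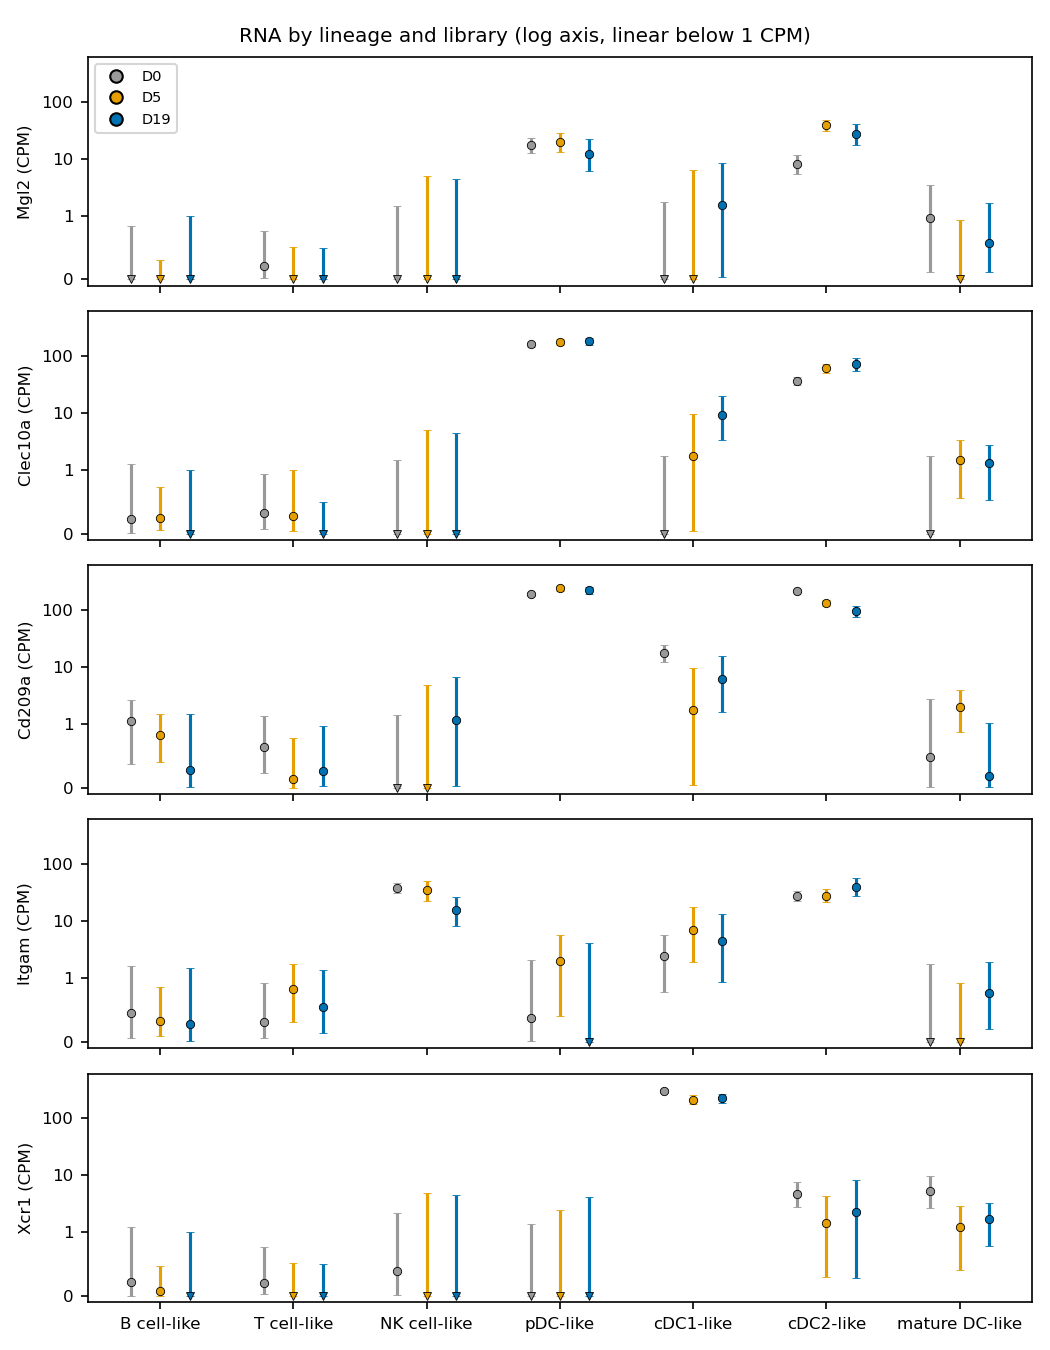
RNA level (CPM, axis logarithmic above 1 and linear below) of the 5 genes by lineage in the 3 libraries. Points are UMIs summed over a lineage's cells, bars are exact Poisson 95% intervals and triangles are sums of 0 UMIs. Mature DC-like cells sit at or below 5.35 CPM for every gene, while pDC-like cells lead for Clec10a at 157 to 178 CPM and cDC1-like cells for Xcr1 at 210 to 302 CPM.

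The Mgl2 UMIs of pDC-like cells were set against Clec10a because of the similarity of the 2 genes. There were 0.111, 0.111 and 0.0692 Mgl2 UMIs per Clec10a UMI in pDC-like cells, a narrow range, and 0.219, 0.642 and 0.387 in cDC2-like cells. Of the pDC-like cells with an Mgl2 UMI, 62.9, 81.0 and 81.8% also held a Clec10a UMI, against 58.7, 72 and 47.3% of the other pDC-like cells. In cDC2-like cells the shares were 60, 50 and 45.5% against 8.11, 9.66 and 12.7%. Whether shared reads account for any Mgl2 UMI was not tested.

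The place of the tags and the place of the RNA parted most for CD301b. Mature DC-like cells were 4.77, 8.58 and 17.5% of all cells, yet they held 57.1, 69.7 and 88.6% of the CD301b tag UMIs and 2 of 86, 0 of 123 and 3 of 42 of the Mgl2 UMIs. cDC2-like cells held 34.9, 64.2 and 57.1% of the Mgl2 UMIs and 5.29, 15.5 and 4.72% of the tag. pDC-like cells held 53.5, 23.6 and 26.2% of the Mgl2 UMIs and 2.55, 0.252 and 0.0894% of the tag. Of all CD301b+ cells, 37 of 50, 57 of 99 and 147 of 171 were mature DC-like. For CD11b the mature cells held 26.9, 46.8 and 74.8% of the tag and 0, 0 and 4.12% of the Itgam UMIs. For XCR1 they held 22.8, 43.3 and 52.4% of the tag and 1.64, 3.76 and 5.49% of the Xcr1 UMIs, whereas cDC1-like cells held 88.4 to 93.4% of the RNA.

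Tags were also counted per RNA molecule in lineages that held the RNA. In cDC1-like cells there were 35.6, 38.5 and 38.3 XCR1 tag UMIs for each Xcr1 UMI, close to one value in the 3 libraries. For CD301b and Mgl2 the ratio in cDC2-like cells was 60.4, 180 and 374, a wide range, from only 30, 79 and 24 Mgl2 UMIs. For CD11b and Itgam it was 1124, 2706 and 1117 in cDC2-like cells and 401, 739 and 441 in NK cell-like cells. In mature DC-like cells the RNA was too scarce for a ratio. They held 19570, 63821 and 168509 CD301b tag UMIs beside 2, 0 and 3 Mgl2 UMIs, and 107511, 395161 and 412017 CD11b tag UMIs beside 0, 0 and 4 Itgam UMIs. XCR1 taken over all mature cells was nearer to free tag, with pooled shares of 3.37, 1.51 and 1.66%, above the background at D0 and not at D5 or D19. Antibodies differ in how many tags they carry and in how well they bind, so these ratios compare lineages for 1 antibody and not antibodies with each other.

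**Figure D3:**
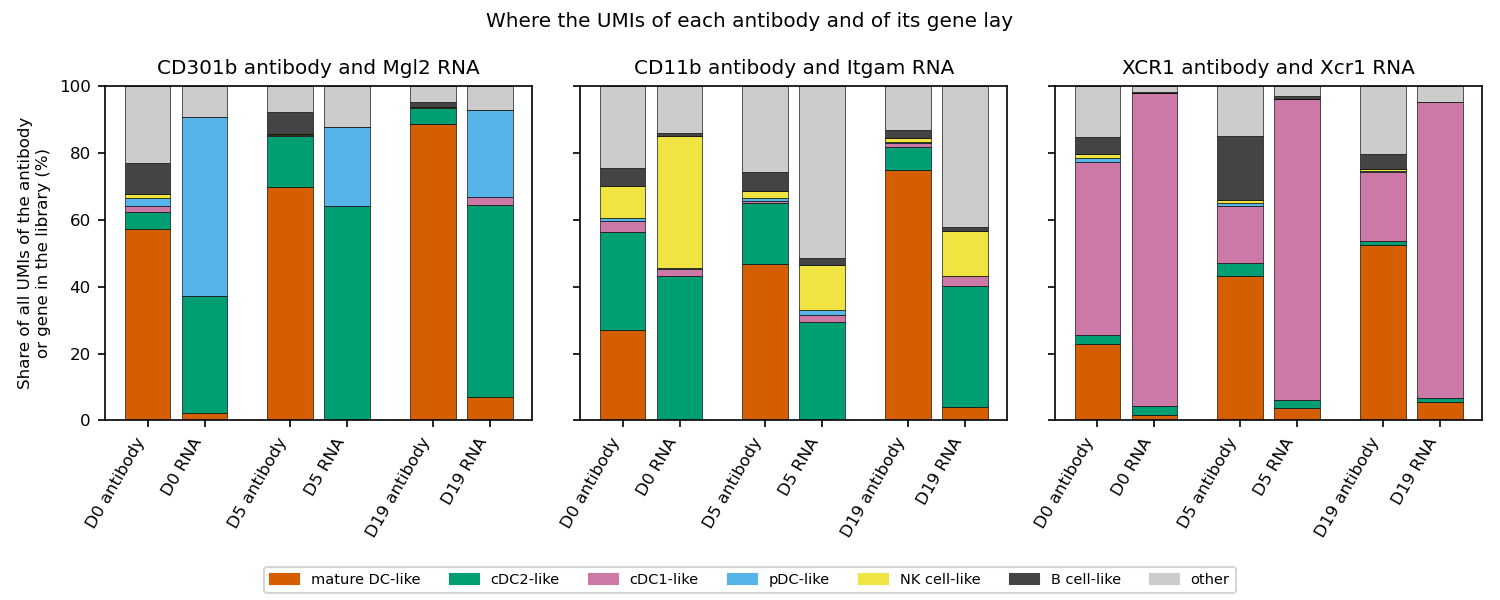
Share (%) of all tag UMIs and of all UMIs of the matching gene that lay in each lineage, for CD301b and Mgl2, CD11b and Itgam, XCR1 and Xcr1, as stacked bars per library. The mature DC-like section fills 57.1 to 88.6% of the CD301b bars and at most 7.14% of the Mgl2 bars.

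CD301b and XCR1 were seldom both called in 1 mature DC-like cell, to an extent that depended on the gate. By the gate on shares, in which a high share of one tag lowers the other, no mature cell was positive for both tags in any library, and 59.5, 75.8 and 70.4% were positive for neither. By the gate on tag UMIs 5 of 72, 22 of 128 and 23 of 413 CD301b+ cells were also XCR1+, beside 33.1, 25.3 and 23.5% of all mature cells. These cells had high antibody totals, with medians of 2827, 3191.5 and 2013 UMIs. CD11b differed between the sets formed by the gate on shares. Its median was 535, 1309 and 524 tag UMIs in CD301b+ cells, 11, 31 and 13 in XCR1+ cells and 405, 574 and 364.5 in cells with neither. As shares the medians were 51.4, 54.0 and 38.7%, then 3.82, 10.03 and 8.28%, then 50.6, 55.6 and 70.2%. In these sets XCR1+ cells were lowest in CD11b on both scales in every library, and the cells with neither tag were CD11b-rich like the CD301b+ ones. Many CD11b UMIs lower the XCR1 share, so the gate on shares favours this order. By the gate on tag UMIs, median CD11b UMIs were 648, 1187 and 518.5 in cells positive for CD301b alone. They were 14, 51 and 14 for XCR1 alone and 319, 523.5 and 302.5 for neither. The sets from the gate on shares also differed in size of profile. CD301b+ cells had medians of 1123, 2523 and 1425 antibody UMIs and 8062, 7883 and 5195 RNA UMIs, and XCR1+ cells 323, 357.5 and 169 antibody UMIs and 3953, 7426.5 and 4583 RNA UMIs. The part of these totals in the calls was not tested.

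The XCR1+ cells were unevenly spread over the 2 mature DC-like clusters. In the smaller cluster, of 118, 62 and 120 cells, 42.4, 35.5 and 22.5% were XCR1+, against 18.5, 9.84 and 15.7% in the larger one. The intervals overlapped at D19 only, at 15.4 to 31.0% against 13.5 to 18.1%. XCR1+ cells of the smaller cluster had 1107, 627 and 668 CPM of Ccr7, the lymph node homing receptor, against 3118, 1810 and 2336 CPM in XCR1+ cells of the larger cluster. The low level was not shared by the whole smaller cluster, whose cells with neither tag had 3529, 1830 and 2450 CPM. Its CD301b+ cells had 2679 and 1923 CPM at D0 and D5, and 639 CPM in 1 cell at D19. Of CD301b+ cells 35.1, 17.5 and 0.680% lay in the smaller cluster.

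Genes that differed between CD301b+ and XCR1+ mature DC-like cells were sought across all genes, since the groups were chosen by antibody and not by RNA. The smaller mature cluster held 60.2, 33.3 and 14.8% of XCR1+ and 35.1, 17.5 and 0.680% of CD301b+ cells. No comparison was made within a cluster, so the differences mix cluster and antibody group. Of the called genes named below, Bcl2l14 was a top 10 gene of the smaller cluster, and Fabp5 and Ccl17 of the larger. A gene was called where its difference on the log2(CPM + 10) scale was at least 1 in the same direction in 3 of 3 libraries. Of 4888 genes with enough UMIs, 62 (1.27%) were higher in CD301b+ cells and 45 (0.921%) in XCR1+ cells. With the gate on tag UMIs, 39 were higher in CD301b+ cells. Differences below are CD301b+ minus XCR1+ at D0, D5 and D19 on that scale, which understates changes of low genes. Mgl2, Itgam, Xcr1, Clec10a and Cd209a themselves held too few UMIs in these cells to be among the genes compared.

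The 10 leading genes towards CD301b+ cells, ranked by the smallest of their 3 library differences, had varied roles. Egr1, an immediate early transcription factor, led with 3.67, 3.04 and 3.70. Zeb2, a transcription factor of the cDC2 and monocyte lineages, differed by 3.04, 2.57 and 3.26. The fatty acid-binding protein genes Fabp5 and Fabp4 differed by 3.52, 2.76 and 2.80 and by 2.85, 2.80 and 2.46. Cybb, the catalytic chain of the phagocyte NADPH oxidase, differed by 2.34, 2.87 and 3.77, and Fcer1g, the Fc receptor γ chain, by 1.99, 2.46 and 2.73. The chemokine gene Cxcl2 had 4.26, 2.66 and 2.04, and the signalling inhibitor gene Socs3 2.11, 2.57 and 2.13. Nrp2, a semaphorin co-receptor gene, had 2.98, 2.14 and 2.79, and Fxyd2 2.98, 2.74 and 2.06. Chosen after their values were seen, the MHC class II genes H2-Ab1 (1.56, 1.66 and 2.25) and H2-Eb1 (1.10, 1.46 and 1.69), S100a4 (2.83, 1.58 and 2.60) and Il1b (2.36, 1.89 and 3.499) were also higher in CD301b+ cells.

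The genes higher in the XCR1+ cells were of mixed kinds. Bcl2l14, a BCL2 family gene, differed by -2.97, -3.23 and -3.78, and Txndc17 by -3.17, -2.65 and -2.80. The tetraspanin gene Cd81 had -3.04, -3.01 and -2.35, and Laptm4b, a lysosomal membrane protein gene, -3.09, -2.08 and -3.19. Mpeg1, the pore-forming perforin-2 of phagocytes, had -2.01, -2.01 and -2.75, and Pglyrp1, a peptidoglycan recognition protein gene, -1.96, -2.30 and -2.02. Ncoa7, Zdhhc14, Fgfbp3 and Ttc39a were each lower in CD301b+ cells by at least 1.99 in every library.

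Of the gene lists, few members were called, beside 1.27% of all genes compared towards CD301b+ and 0.921% towards XCR1+ cells. Most lists had too few genes compared to be set against these shares. Among maturation genes 20 of 20 were compared, and Ccl17, a CCR4 ligand gene, was called higher in CD301b+ cells with 1.05, 3.805 and 2.20. Il12b, the p40 chain of interleukin 12, was called higher in XCR1+ cells with -2.11, -1.49 and -2.44. Ccr7 differed by only 0.25, -0.03 and 0.11. Of 15 cDC2 genes 6 could be compared and Klf4, a cDC2 transcription factor, was called with 1.30, 1.18 and 1.05. Of 15 cDC1 genes 4 could be compared and 0 were called. The lectins gave 2 of 24 genes compared and 0 called, and the β2 integrins and partners 4 of 9 and 0. Itgax, the CD11c chain, came near the threshold with 2.25, 0.80 and 1.498. The list medians were 0.80 for cDC2 genes, 0.34 for integrins, -0.05 for maturation genes, -0.06 for cDC1 genes and -0.43 for lectins, beside 0.04 over all genes compared.

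Genes of other cells also differed. Cd3e, a T cell receptor complex gene, was called higher in CD301b+ cells (1.10, 1.27 and 1.90), at 44.9, 19.2 and 27.3 CPM against 15.6, 2.09 and 0. Ctrc, a pancreatic protease gene noticed after its values were seen, was called higher with 1.12, 1.79 and 1.04. Their part in the other differences was not tested.

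**Figure D4:**
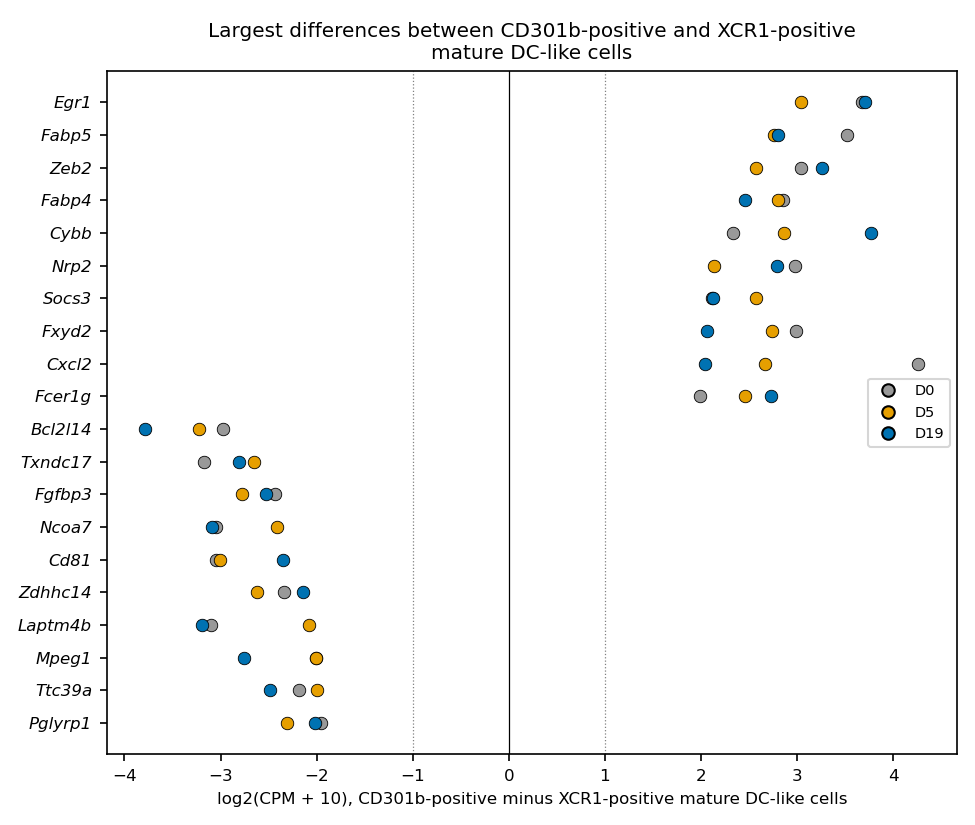
Difference between CD301b+ and XCR1+ mature DC-like cells, as log2(CPM + 10) of CD301b+ minus XCR1+ (x axis), for the 10 genes leading in each direction (y axis). Each point is 1 library and the dotted lines mark -1 and 1. Egr1 lies at 3.04 to 3.70 and Bcl2l14 at -3.78 to -2.97, with the 3 libraries on the same side for every gene.

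Mature DC-like against cDC2-like cells are given as a description, since the clusters were formed on 2000 variable genes of the same cells, without the 5 members. By the same call rule 304 of 10148 genes (3.00%) were higher in mature DC-like and 387 (3.81%) in cDC2-like cells. Among the members, Itgam (-1.92, -1.93 and -2.22), Cd209a (-4.43, -3.55 and -3.35) and Clec10a (-2.22, -2.61 and -2.84) were called lower in the mature cells. Mgl2 was not, with -0.71, -2.29 and -1.83, on a scale that adds 10 CPM to its 7.998 CPM at D0. Most compared genes of the lectin and integrin lists, which include these members, were lower. Of 24 listed lectins 14 could be compared, 9 were lower and 1 was higher, Ly75, the DEC-205 receptor, with 2.92, 2.35 and 2.36. The 9 included Cd209a, Clec10a, the immunoglobulin-type lectin gene Siglech, which is not a C-type lectin, Clec4a1, Clec4a2, Clec4a3, Clec4a4 and Clec4b1 of the dendritic cell immunoreceptor group and Cd209d (-3.70, -3.24 and -4.04). Of 9 β2 integrin genes and partners 8 could be compared and 5 were lower, among them Itgam itself and Itgb2, the partner chain of CD11b, with -1.94, -2.36 and -1.88. Itgb2 stood at 31.1, 15.2 and 16.2 CPM in mature DC-like and 147, 119 and 86.2 CPM in cDC2-like cells. The median difference was -1.93 for the lectins, -1.15 for the integrins, -1.53 for the cDC2 genes and 1.91 for the maturation genes, beside -0.13 over all genes compared.

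Across all lineages, the 3 pairs differed in how closely RNA followed the pooled tag share. Over 39 lineage-by-library units of at least 50 cells, Pearson's r between the pooled tag share and log2(CPM + 10) was 0.95 for XCR1 and Xcr1, 0.67 for CD11b and Itgam and 0.17 for CD301b and Mgl2. The 50-cell limit left out the cDC1-like cells of D5, so the cDC1-like units behind the XCR1 value were those of D0 and D19. It also left out the Lyz2 Chil3 cluster, with the highest Itgam level, in all 3 libraries. Units of 1 library share their depth and free RNA, so r is a description. The high r for XCR1 does not mean that RNA followed protein within mature DC-like cells. These cells held 22.8, 43.3 and 52.4% of the XCR1 tag UMIs and 1.64, 3.76 and 5.49% of the Xcr1 UMIs. Ranked among 21146 genes by r with the tag, Xcr1 was number 10, Itgam 163 and Mgl2 4600. For other antibodies of the panel, Cd4 (r = 0.86) and Cd8a (0.81) were number 1 for their own tags, and Cd3e was 82 (0.68). On this scale the 5 others ranked below Mgl2, with Cd80 at 7072 (0.10), Ccr7 at 7462 (0.05), Adgre1 at 11198 (-0.05), Cx3cr1 at 13129 (-0.08) and Csf1r at 13984 (-0.12). With centred log ratios in place of shares the order changed, with Cd80 at 29 (0.72), Ccr7 at 7291, Adgre1 at 10920 and Cx3cr1 at 11665 all ahead of Mgl2 at 11705 (-0.05). With the 3 mature DC-like units left out, a choice made after the data were seen, r was 0.44 for Mgl2 (number 738 of 20753), 0.89 for Itgam (number 1) and 0.95 for Xcr1 (number 13).

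The genes whose pattern over the 39 units was most like a tag were not its own gene in any of the 3 pairs. For CD301b they were Ankrd34c (r = 0.94), Olfr108, 5330413P13Rik, Gm30015 and the chemokine gene Ccl17 (0.87). For CD11b they were Plscr1 (0.87), Gm17055, Gm47863, Arhgef2 and the NK receptor gene Klri1 (0.80). For XCR1 they were Gpr141b (0.97), Cltrn, Itga8, Cd207, which encodes the lectin langerin, and Gm11837 (0.96).

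**Figure D5:**
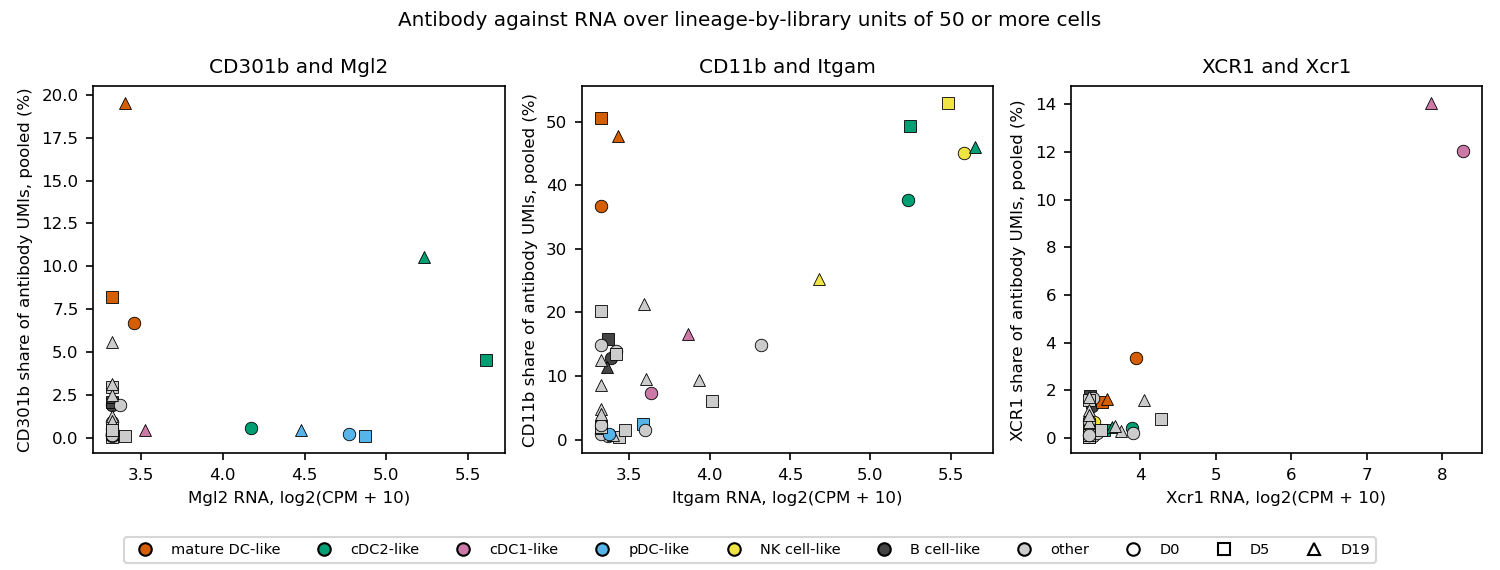
Pooled tag share (%, y axis) against log2(CPM + 10) of the matching gene (x axis) for CD301b and Mgl2, CD11b and Itgam, XCR1 and Xcr1. Each point is 1 lineage in 1 library with at least 50 cells. The mature DC-like units stand at the left of the CD301b and CD11b panels with pooled shares of 6.70 to 19.5% and 36.8 to 50.7%. In the XCR1 panel the cDC1-like units of D0 and D19 stand at the upper right.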

How the data were processed

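Single-cell RNA and antibody tags of LN cells were measured with 10x Chromium 3′ chemistry and Feature Barcoding (TotalSeq-B antibodies). The authors deposited unfiltered tables of raw UMI counts per gene and tag for each barcode, made with Cell Ranger on mm10, per the labels and the submitters' processing notes. No normalization was applied to the deposited counts.

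Barcodes with at least 1000 RNA UMIs, 500 genes and at most 10% mitochondrial RNA were kept. Doublets (342, 312 and 365 cells, at 0.8% per 1000 cells) were removed by a simulated-doublet score. Cells of the 3 libraries were clustered together (scanpy 1.11.5, leidenalg 0.10.2, 2000 variable genes without the 5 members, 30 components, 15 neighbours, resolution 1.0). Clusters were named from marker lists, with naming thresholds set after the clusters were seen. The depth per cell differed between libraries, with medians of 4905, 4774 and 3344.5 RNA UMIs and 593.5, 177 and 358 antibody UMIs over barcodes with at least 1000 RNA UMIs. Median RNA UMIs were 6415.5, 7438 and 4233.5 in mature DC-like, 9242, 9905 and 6008 in cDC2-like and 3384, 3809 and 1992.5 in B cell-like cells.

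Counts were summed per lineage and library. Intervals are exact (scipy 1.17.1), and they and the floors of 3 UMIs cover counting error only. Genes were compared where both groups together held at least 10 UMIs in each library. On simulated counts for the CD301b+ and XCR1+ cells, 0 of 4482 unchanged genes were called. Those counts were Poisson draws from a shared profile per library. They held no spread between cells, cluster differences or RNA of other cells, so they give no rate of false calls for the real data. Named genes were the 5 members, the genes of the other antibodies, members of the lists, the 10 called genes in each direction whose smallest difference over the 3 libraries was largest and the 5 genes with the highest r. Outside this rule, 5 genes (H2-Ab1, H2-Eb1, S100a4, Il1b and Ctrc) were chosen after their values were seen. The members and lists were chosen with earlier results of these data known. Alternatives tried were other cell filters, cluster resolutions, gates, thinning to 200 antibody or 1000 RNA UMIs, another pseudocount and leaving out a library.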

Additional observations from a re-analysis of the deposited data

How the results depend on the processing

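Values are in the order D0, D5, D19. The positive share of mature DC-like cells depended on the gate, and 39 of 108 values moved by more than their interval. With the 95th percentile of B cell-like cells it was 45.6, 56.4 and 69.2% for CD11b, 16.5% at D5 and 19.1% at D19 for XCR1 and 25.5% at D19 for CD301b. With T cell-like cells as the reference it was 39.2, 35.0 and 50.5% for CD301b, 68.9, 88.0 and 85.9% for CD11b and 41.2, 31.4 and 25.8% for XCR1. With centred log ratios it was 21.3, 16.5 and 32.1% for CD301b, 47.3, 56.6 and 69.2% for CD11b and 34.5, 18.5 and 20.97% for XCR1. With antibody UMIs per cell it was 24.3, 25.1 and 37.0% for CD301b, 51.0, 63.1 and 75% for CD11b and, at D5 and D19, 25.3 and 23.5% for XCR1. Thinned to 200 antibody UMIs it was 17.8, 28.0 and 59.5% for CD11b and, at D19, 6.11% for CD301b and 11.4% for XCR1, with the reference cut to 167, 218 and 106 B cell-like cells. With at least 2000 RNA UMIs CD11b at D19 was 41.7%, and without the doublet filter XCR1 at D19 was 13.95%.

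The share of positive mature cells with a UMI of the gene ranged over the settings from 0 to 1.75% for Mgl2, 0 to 1.08% for Itgam and 0 to 7.14% for Xcr1. Requiring 2 UMIs gave 0 for Mgl2 and Itgam at D19, and for Xcr1 0 at D0 and 0.546% at D19. Thinned RNA gave 0 for Mgl2 and Itgam at D19, and for Xcr1 1.20% at D0 and 0.546% at D19.

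The log2 ratio of the pooled CD301b share, CD301b+ mature over all cDC2-like cells (5.66, 2.96 and 2.35), is raised by the gate itself, so its sign shows nothing about stability. It was 5.41, 2.87 and 2.41 with 2000 UMIs, 5.42, 3.02 and 2.43 without the doublet filter, 3.05 at D5 with the member genes kept in clustering, 5.42, 2.85 and 2.00 with the 95th percentile, 4.33, 1.86 and 1.42 with the T cell-like reference, 5.11, 2.55 and 1.82 with centred log ratios, 4.62, 2.02 and 1.56 with antibody UMIs per cell and 5.55, 3.74 and 3.43 thinned. For the matching Mgl2 log2 ratio, CD301b+ mature cells held no Mgl2 UMI at D5 under any alternative, so only an upper limit against the floor of 3 UMIs can be given, -2.60, and from -4.25 to -2.47 over the alternatives. At D19, with 1 to 3 UMIs, it was -4.47 and ranged from -4.65 to -3.06. At D0 it has no value. Where a wider gate admitted 2 Mgl2 UMIs it was -1.39 [-4.50 to 0.589] (antibody UMIs per cell) and -1.89 [-5.00 to 0.0889] (T cell-like reference), intervals that hold both directions. Resolutions of 0.5 and 2.0 and a filter on 1000 UMIs alone formed no cluster named cDC2-like, so these 3 settings gave no ratio.

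Between CD301b+ and XCR1+ mature cells, the genes higher in CD301b+ cells numbered 39 with antibody UMIs per cell, and a pseudocount of 1 gave 95 and 77 genes in the 2 directions. Leaving out 1 library gave 99 to 113 and 71 to 75, since a call then needs 2 libraries and not 3. With centred log ratios Mgl2 ranked 11705 and Itgam 341 for their tags, and with mature DC-like units left out 738 and 1. The last setting and the gate on antibody UMIs for cDC2-like cells were added after the data were seen.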
